A study of Mus musculus with 4 samples.

Results

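Amino acid transporters of the plasma membrane were examined in mouse bone marrow-derived macrophages with intact or deleted Eif2ak3, the gene of the stress kinase PERK in the endoplasmic reticulum membrane. The 10 genes were taken by name and mapped through Entrez numbers; 10 of 10 were found among 15114 Entrez-numbered genes listed in any library. They comprise the cationic transporters Slc7a1 and Slc7a2, the neutral transporters Slc7a5, Slc7a8, Slc38a2, Slc1a4, Slc1a5 and Slc6a9, the cystine transporter Slc7a11, and Slc3a2, the heavy chain that several of them share.

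All libraries came from C57BL/6 marrow. The growth factor M-CSF (20 ng/mL) turned it into macrophages over 7 days, and the cytokine interleukin 4 (IL-4, again 20 ng/mL) then acted on them for 24 h. The wild-type group (WT) held 2 libraries from Eif2ak3 fl/fl cells, and the knockout group (KO) held 2 libraries from LysMcre x Eif2ak3 fl/fl cells. Both groups thus carried the floxed allele, and they differed by LysMcre, a Cre recombinase expressed from the lysozyme gene Lyz2 in myeloid cells. Neither the age of the mice nor separate animals or cultures behind the libraries of a genotype are given in the sources used here, so every p-value measures only the spread between these libraries. The medium held 2 mM glutamine, 10 mM glucose and 10% serum.

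Amino acids enter a macrophage through carriers that differ in substrate and in mechanism. CD98 heavy chain (SLC3A2) carries no substrate itself but brings light chains such as LAT1 (SLC7A5), LAT2 (SLC7A8) and xCT (SLC7A11) to the cell surface, where they exchange one amino acid for another. CAT1 (SLC7A1) and CAT2 (SLC7A2) take up arginine and lysine, and in macrophages CAT2 is known for supplying the arginine that arginase or nitric oxide synthase consumes. PERK phosphorylates eIF2α, which favours translation of the transcription factor ATF4, and several transporter genes are known ATF4 targets. NRF2, the regulator of antioxidant genes, is a further known activator of Slc7a11.

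The core of the composite element that ATF4 and C/EBP proteins bind (TGATGNAA, 8 letters) and that of the antioxidant response element that NRF2 binds (TGACNNNGC, 9 letters) were sought on both strands. The window was RefSeq's promoter, 250 bases before to 50 after a start on GRCm38.p6, and 7 of the 10 genes had one. Shown are 1 stretch each of 4 transporters with a match; the matches of Slc6a9 are given by position only. They are written 5′ to 3′ on the gene's strand, with matches in capitals. Slc7a11 lies at chr3:50443614-50443713, Slc1a4 at chr11:20332704-20332773, Slc7a1 at chr5:148399905-148399964 and Slc38a2 at chr15:96699729-96699788, all on the minus strand.
Slc7a11: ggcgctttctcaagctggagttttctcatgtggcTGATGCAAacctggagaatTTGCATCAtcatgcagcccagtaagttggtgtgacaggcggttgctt
Slc1a4: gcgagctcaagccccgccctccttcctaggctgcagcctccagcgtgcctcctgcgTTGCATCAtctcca
Slc7a1: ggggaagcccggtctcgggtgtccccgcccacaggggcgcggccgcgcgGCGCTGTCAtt
Slc38a2: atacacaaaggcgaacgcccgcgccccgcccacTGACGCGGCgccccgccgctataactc

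Slc7a11 held the ATF4 core at 2 places, from -66 to -59 on its own strand and from -47 to -40 on the opposite strand, counted from the start. Slc1a4 held it once on the opposite strand, from -4 to 4, across the start. At least 1 match stood in 3.97% of 32851 promoters, and 2 or more in 23 of them (0.0700%). The start of Slc7a11 used here lies inside its annotated span, so a start further upstream was not examined. The antioxidant core stood in 1 of the 2 promoters of Slc7a1, in that of Slc38a2 and in 2 of the 3 of Slc6a9, from -46 to -38 and from -45 to -37, and in 12.4% of all promoters. The matches to the 2 cores did not overlap each other. Slc7a8 and Slc3a2 had no match in this window. Slc7a2, Slc7a5 and Slc1a5 were not examined for motifs. A match is a run of letters, and binding was not measured.

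Before the comparison, the libraries were set side by side. The values are FPKM, fragment counts scaled by feature length and library size, as the authors deposited them. KO replicate 2 listed 80375 features, against 48335 to 53411 in the others, and had 41.1% of its FPKM on Entrez-numbered genes, against 54.8% to 58.9%. Over the 9501 tested genes, those with a mean of at least 1 FPKM, the median change from WT to KO on log2(FPKM + 1), the scale of every log2 change below, was -0.14 as deposited and -0.01 after median-ratio scaling. Changes are therefore also given relative to the median gene. Eif2ak3 measured 10.9 and 8.88 FPKM in WT and 6.55 and 4.88 FPKM in KO (limma adjusted p = 0.776), and gene-level values cannot show which exons were lost. Lyz2, whose locus drives LysMcre, measured 627 and 699 FPKM in WT and 253 and 201 FPKM in KO (limma adjusted p = 0.413). Of 8 macrophage markers, Cd68, Adgre1 and Csf1r were high in every library, at 178 to 786 FPKM. Itgam measured 146 to 244 FPKM, while Cd14 and Mertk were lower, at 22.3 to 32.1 and 7.34 to 9.65 FPKM. Fcgr1, the high-affinity IgG receptor and another macrophage marker, chosen here after its values were seen, stood apart in WT replicate 1 at 7.27 FPKM, against 25.5 to 34.0 FPKM elsewhere. Of 5 markers of the IL-4 response, Mrc1, Retnla and Mgl2 measured 444 to 1006 FPKM, and Arg1 is given below. Chil3 was low, at 2.26 to 6.93 FPKM. Itgam, Cd14 and Chil3 were also chosen after their values were seen. Summed markers of neutrophils, T and NK cells, B cells, dendritic cells, mast cells and stromal cells each stayed between 0.03 and 3.40 FPKM per library. Pf4, a megakaryocyte marker and a chemokine that macrophages can also express, measured 370 and 452 FPKM in WT and 614 and 311 FPKM in KO, while the erythroid factor Klf1 was at 0.07 FPKM or less. In bulk RNA, fewer cells of a type and less RNA per cell cannot be told apart.

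The 10 transporters spanned 2 orders of magnitude. The most abundant exceeded the least abundant 101-fold in WT replicate 1 and 161-fold in KO replicate 2. Slc3a2 and Slc7a2 held the first 2 ranks in every library, above 91.9% to 96.2% of the Entrez-numbered genes listed there. Slc38a2, Slc7a8 and Slc1a5 held ranks 3 to 5 in an order that changed between libraries, so they did not differ beyond their spread. Slc7a1 came next, at rank 6, followed by Slc7a5 at rank 7 and Slc1a4 at rank 8 in every library. Slc7a11 and Slc6a9 exchanged the last ranks, and both lay above only 21.7% to 27.8% of listed genes.

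**Figure D1:**
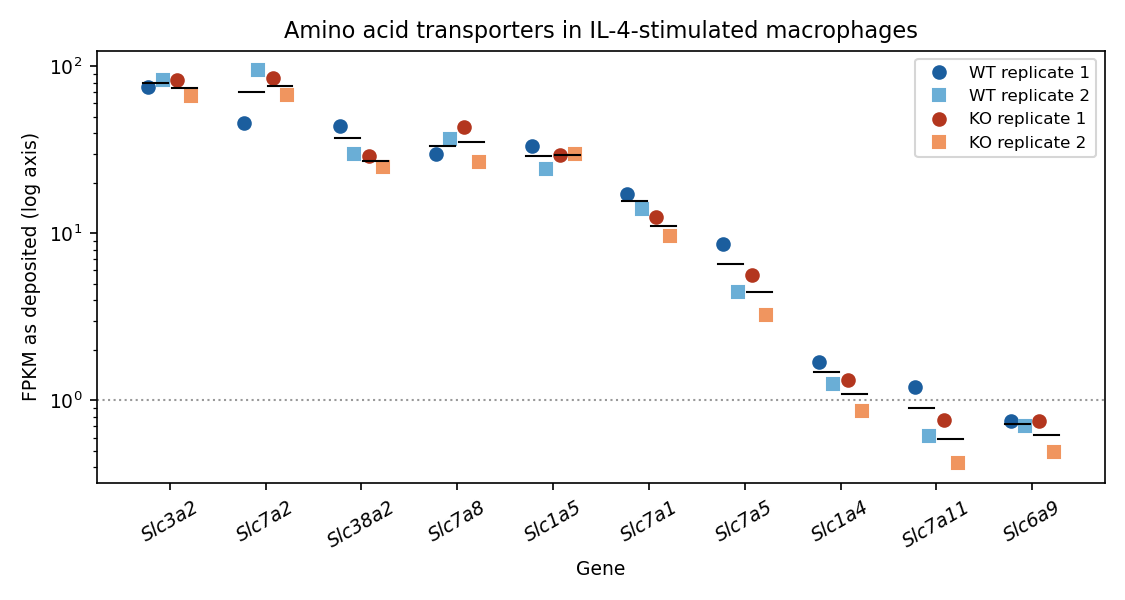
FPKM as deposited (log axis) of the 10 transporters in each of the 4 libraries, ordered by their WT mean; points are libraries, black bars are the means of the 2 libraries of a genotype and the dotted line marks 1 FPKM. Slc3a2 and Slc7a2 stand between 46.0 and 94.7 FPKM, while Slc7a11 and Slc6a9 lie near or below 1 FPKM.

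No transporter passed the test of KO against WT. Of 8 transporters above the minimum of 1 FPKM, limma called 0 at an adjusted p under 0.05, and their adjusted p-values ran from 0.776 to 0.953. Over all tested genes, 0.0211% were called in either direction. At an unadjusted p under 0.05, limma had 1 transporter lower in KO, Slc7a1, and 0 higher, where 3.52% of all tested genes were lower. After median-ratio scaling, 0 transporters were under that p, and the share of all tested genes was not counted there. As deposited, both KO libraries lay below both WT libraries for 2 of the 10 genes, Slc7a1 and Slc38a2, a pattern that 35.6% of all tested genes showed. After median-ratio scaling this held for 1 of the 10, Slc7a1, against 15.3% of tested genes. For 0 of the 10 did both KO libraries lie above both WT libraries, on either scale. Of all tested genes 4.14% showed this as deposited and 14.0% after median-ratio scaling. The median log2 change of the 8 tested transporters was -0.03 relative to the median gene, with 4 below it and 4 above it.

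Slc3a2, the shared heavy chain (Entrez 17254, chromosome 19, 8706882 to 8723369, GRCm38.p6, as for all coordinates below), was steady across the libraries. It measured 75.4 and 82.9 FPKM in WT and 82.6 and 66.1 FPKM in KO. The genotypes overlapped, and as deposited the lowest value was that of KO replicate 2. The log2 change of Slc3a2 was -0.10 as deposited (SE 0.18, limma adjusted p = 0.855) and +0.05 after median-ratio scaling, so its sign depended on the scaling. The scaled 95% interval of the change ran from 0.844-fold to 1.26-fold, the narrowest of the 8 tested transporters. Slc3a2 exceeded the sum of its 3 light chains among the members, Slc7a5, Slc7a8 and Slc7a11, in all 4 libraries. The ratio of heavy chain to that sum, on the length-scaled FPKM, was 1.90 and 1.99 in WT and 1.66 and 2.16 in KO.

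Of the cationic transporters, Slc7a2 was the abundant one and varied most within the WT group. Slc7a2, which encodes CAT2 (Entrez 11988, chromosome 8, 40862341 to 40922070), measured 46.0 and 94.7 FPKM in WT and 85.4 and 67.4 FPKM in KO. WT replicate 1 was the lowest library and WT replicate 2 the highest, so that both KO values lay between them. On the log2 scale KO differed from WT by 0.20 as deposited (SE 0.33, limma adjusted p = 0.845), or by 0.34 relative to the median gene. Relative to the median gene it was -0.18 without WT replicate 1 and 0.84 without WT replicate 2, so the direction rested on WT replicate 1. That library was also the one with low Fcgr1. A role of library makeup in this difference was not tested. Slc7a2 exons share 635 bases with the noncoding Gm26584 on the opposite strand. Arg1, arginase 1, which uses the imported arginine, measured 1754 and 2061 FPKM in WT and 2412 and 1324 FPKM in KO. Arg1 was therefore highest and lowest in the KO libraries, unlike Slc7a2.

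Slc7a1, which encodes the more widely expressed CAT1 (Entrez 11987, chromosome 5, 148327410 to 148399904), measured 17.3 and 13.9 FPKM in WT and 12.5 and 9.66 FPKM in KO. As deposited, its mean was 15.6 ± 2.37 FPKM in WT and 11.1 ± 2.02 FPKM in KO (SD, n = 2 each). Every KO value was below every WT value, and it was the one transporter for which this also held after scaling. The log2 change of Slc7a1 was -0.46 as deposited (SE 0.18, unadjusted p = 0.0406, limma adjusted p = 0.776), or -0.32 relative to the median gene. After median-ratio scaling its unadjusted limma p was 0.0753. Leaving out any 1 library kept the change below the median gene, between -0.18 without WT replicate 1 and -0.48 without WT replicate 2. Slc7a2 made up 87.2% of the cationic sum in WT replicate 2, and 87.2% and 87.5% in KO. In WT replicate 1 it made up 72.7%.

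Among the neutral transporters, Slc38a2, which encodes the sodium-coupled transporter SNAT2 (Entrez 67760, chromosome 15, 96687392 to 96699728), is known to be induced by amino acid starvation. It measured 44.0 and 30.1 FPKM in WT and 29.3 and 25.0 FPKM in KO. WT replicate 1 stood above the other 3 libraries, and after scaling WT replicate 2, at 28.5 FPKM, lay between the KO values of 29.0 and 27.8 FPKM. For Slc38a2 the log2 change was -0.42 as deposited (SE 0.21, limma adjusted p = 0.776), or -0.28 relative to the median gene. Without WT replicate 1 it was -0.01 relative to the median gene.

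Slc7a5 and Slc7a8 encode LAT1 and LAT2, exchangers of large neutral amino acids that both pair with the heavy chain. Slc7a5 (Entrez 20539, chromosome 8, 121881146 to 121907686) measured 8.66 and 4.45 FPKM in WT and 5.62 and 3.27 FPKM in KO. In each genotype replicate 1 was the higher, and the genotypes overlapped. Its log2 change was -0.45 as deposited (SE 0.32, limma adjusted p = 0.776), or -0.31 relative to the median gene, and 0.10 without WT replicate 1, which turned the sign. Slc7a8 (Entrez 50934, chromosome 14, 54722215 to 54781886) was several times more abundant, at 29.9 and 36.6 FPKM in WT and 43.4 and 26.9 FPKM in KO. As deposited, the highest and the lowest value of Slc7a8 were both KO libraries. The change of Slc7a8 was 0.04 on the log2 scale as deposited (SE 0.25, limma adjusted p = 0.953), or 0.18 relative to the median gene, and -0.08 without KO replicate 1. The ratio of Slc7a5 to Slc7a8 was 0.290 in WT replicate 1, and 0.121 in WT replicate 2 against 0.129 and 0.122 in KO. WT replicate 1 thus stood apart from 3 libraries that were alike in this ratio.

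Slc1a5 and Slc1a4 encode ASCT2 and ASCT1, exchangers of small neutral amino acids, and ASCT2 is known as a route for glutamine. Slc1a5 (Entrez 20514, chromosome 7, 16781334 to 16798274) measured 33.5 and 24.3 FPKM in WT and 29.5 and 29.7 FPKM in KO. Both KO values lay between the WT values. Its log2 change was 0.05 as deposited (SE 0.19, limma adjusted p = 0.925), or 0.19 relative to the median gene, with -0.04 without WT replicate 2. Slc1a4 (Entrez 55963, chromosome 11, 20302180 to 20332713) was far lower, at 1.70 and 1.25 FPKM in WT and 1.33 and 0.87 FPKM in KO. The genotypes overlapped and replicate 1 was the higher in each. The change of Slc1a4 was -0.24 on the log2 scale as deposited (SE 0.23, limma adjusted p = 0.776), or -0.10 relative to the median gene, and 0.03 without WT replicate 1. Slc6a9, which encodes the glycine transporter GLYT1 (Entrez 14664, chromosome 4, 117835258 to 117869305), measured 0.75 and 0.70 FPKM in WT and 0.75 and 0.49 FPKM in KO. It was under the minimum and did not enter the main test; with no filter the log2 change was -0.10 (SE 0.11, limma adjusted p = 0.811). It was -0.22 at a pseudocount of 0.1. At a pseudocount of 1 it ranged from -0.21 without KO replicate 1 to 0.02 without KO replicate 2, which turned the sign. Its exons share 1429 bases with Ccdc24 on the opposite strand, a gene listed at 0.03 FPKM or less. Whether reads were assigned by strand is not given in the sources used here.

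Slc7a11, which encodes the cystine and glutamate exchanger xCT (Entrez 26570, chromosome 3, 50364936 to 50499087), was weakly expressed in all libraries. It measured 1.20 and 0.61 FPKM in WT and 0.76 and 0.42 FPKM in KO. Replicate 1 exceeded replicate 2 in each genotype, 1.97-fold in WT and 1.81-fold in KO, and KO replicate 1 lay above WT replicate 2. The gene was under the minimum of 1 FPKM and did not enter the main test. Tested with no filter, the unscaled log2 change was -0.25 at a pseudocount of 1 (SE 0.20, limma adjusted p = 0.803). Leaving out 1 library moved it between -0.03 without WT replicate 1 and -0.48 without WT replicate 2, with -0.10 without KO replicate 2 and -0.41 without KO replicate 1. With a pseudocount of 0.1, which understates low genes less, it was -0.52 (SE 0.48, limma adjusted p = 0.767), with a 95% interval from -1.82 to 0.78. That interval includes changes in either direction. Intracellular cystine feeds glutathione synthesis, and Gclm and Gclc encode the subunits of its first enzyme. Both had KO values below WT values before and after scaling, as 35.6% and 15.3% of all tested genes did. A link to Slc7a11 was not tested. Gclm measured 11.96 and 10.1 FPKM in WT and 7.19 and 5.60 FPKM in KO, with an unadjusted limma p of 0.00466 and an adjusted p of 0.776.

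**Figure D2:**
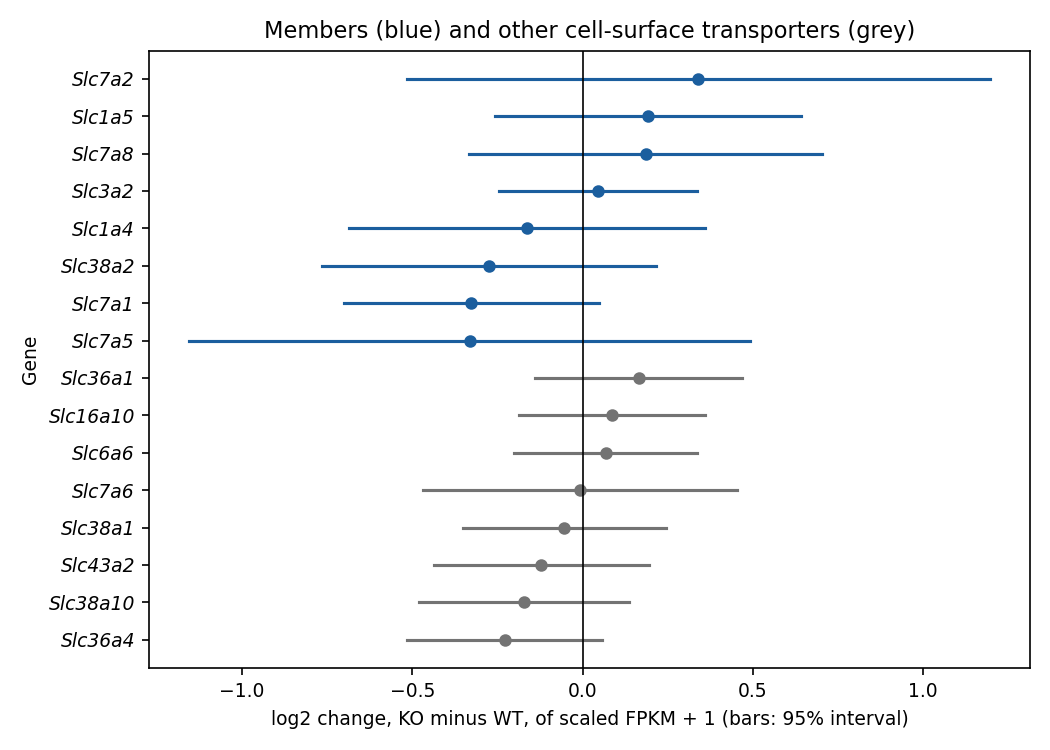
Log2 change from WT to KO of the 8 tested members (blue) and of 8 other tested genes (grey), on log2(FPKM + 1) after median-ratio scaling. The grey genes are those grouped by name as cell-surface amino acid transporters. Points are limma estimates and bars their 95% intervals. Every interval includes 0; that of Slc7a1 runs from -0.70 to 0.05, and those of Slc7a2 and Slc7a5 are the widest.

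Summed by class, the transporters did not separate the genotypes. The 2 cationic genes summed to 63.3 and 109 FPKM in WT and 97.9 and 77.1 FPKM in KO, with both KO libraries between the WT libraries. The 6 neutral genes summed to 118 and 97.5 FPKM in WT and 110 and 86.2 FPKM in KO, again overlapping. The mean neutral sum was 108 ± 14.8 FPKM in WT and 98.1 ± 16.8 FPKM in KO (SD, n = 2 each). The KO minus WT difference was -9.895 FPKM as deposited and -0.135 FPKM after median-ratio scaling. The neutral class held 45.8% of the FPKM of all 10 genes in WT replicate 1, against 33.7%, 37.7% and 37.5% in WT replicate 2, KO replicate 1 and KO replicate 2. No test was run on these sums; a two-sided exact permutation test of 2 libraries against 2 gives no p below 0.333.

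**Figure D3:**
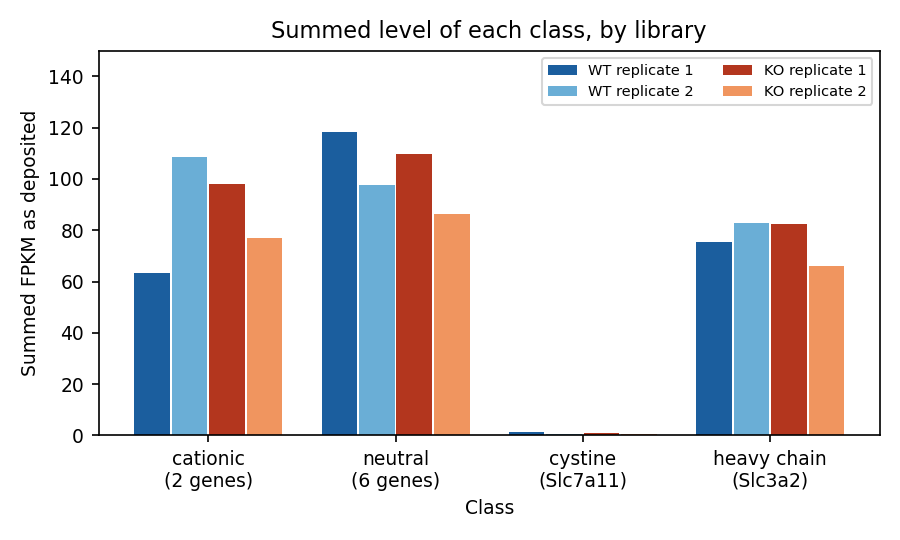
Summed FPKM as deposited of the cationic (Slc7a1, Slc7a2), neutral (6 genes), cystine (Slc7a11) and heavy chain (Slc3a2) classes; each bar is 1 library. WT replicate 1 has the lowest cationic sum, 63.3 FPKM, and the highest neutral sum, 118 FPKM; the cystine class does not exceed 1.20 FPKM.

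The transporters varied between replicates of a genotype in a pattern that several of them shared. Relative to its own mean over the 4 libraries on log2 scaled FPKM, Slc7a11 stood at 0.72 and -0.26 in WT and at 0.12 and -0.57 in KO. Slc7a5 stood at 0.68 and -0.29 in WT and at 0.11 and -0.50 in KO, and Slc1a4 at 0.37 and -0.08 in WT and at 0.08 and -0.37 in KO. These 3 genes had the same order of all 4 libraries, though Slc7a11 and Slc1a4 stayed at 1.70 FPKM or less as deposited. The share of all tested genes with that full order was not counted. WT replicate 1 was highest and KO replicate 2 lowest for these 3 and also for Slc7a1 and Slc38a2. That made 5 of the 10 transporters and 4 of the 8 tested ones. Of all tested genes 10.4% had these extremes; the pattern was picked out after the values were seen. Replicate 1 exceeded replicate 2 in both genotypes for 6 of the 10 genes, which also included Slc7a1, Slc38a2 and Slc6a9, and for 4 of the 8 tested ones, both as deposited and after scaling. Among the tested genes as a whole this held for 35.8% as deposited and 26.5% after scaling. Slc7a2 had the opposite extreme, with WT replicate 1 lowest at -0.69. On this scale WT replicate 1 was also lowest for Slc7a8, at -0.24, and for Slc3a2, at -0.09.

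**Figure D4:**
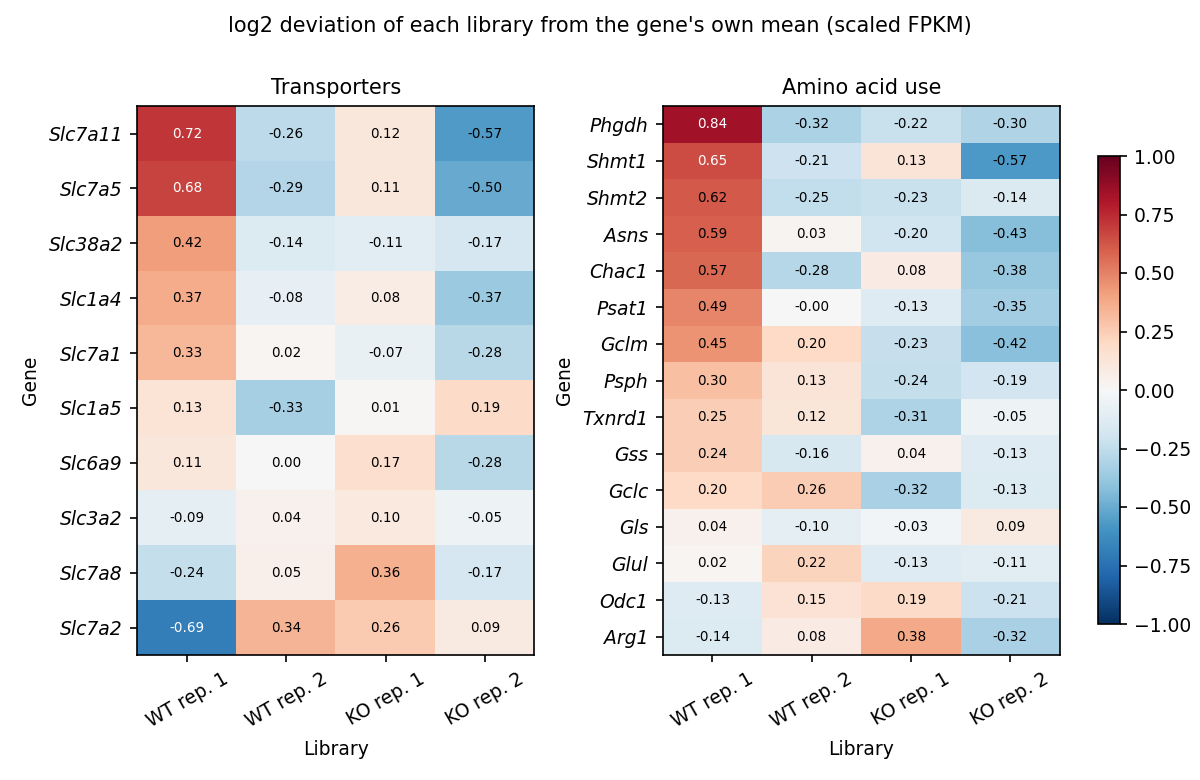
Log2 deviation of each library from the gene's own mean over the 4 libraries, on median-ratio scaled FPKM, for the 10 transporters (left) and for 15 tested genes of amino acid synthesis and use (right), both ordered by WT replicate 1; red is above and blue below the mean. Slc7a11 and Slc7a5 are highest in WT replicate 1, at 0.72 and 0.68, while Slc7a2 is lowest there, at -0.69.

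Beside the transporters, a list of genes that use or make the transported amino acids was read. The difference between it and the transporters was not tested. The list was chosen with earlier results of these data known, so its counts and median are a description only. Of its 15 tested genes, limma called 0 at an adjusted p under 0.05. At an unadjusted p under 0.05, 6 were lower and 0 higher, beside 3.52% of all tested genes that were lower. As deposited, replicate 1 exceeded replicate 2 in both genotypes for 10 of the 15, beside 35.8% of all tested genes. The median log2 change of the 15 genes was -0.33 relative to the median gene. Psat1, of serine synthesis, was highest in WT replicate 1 at 53.6 FPKM, against 38.3 FPKM in WT replicate 2 and 33.5 and 25.7 FPKM in KO (limma adjusted p = 0.776). Glul, glutamine synthetase, measured 36.3 and 42.1 FPKM in WT and 31.6 and 28.5 FPKM in KO (limma adjusted p = 0.776). Txnrd1, a thioredoxin reductase, measured 43.8 and 40.3 FPKM in WT and 28.6 and 30.5 FPKM in KO (limma adjusted p = 0.776).

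Of the regulators upstream of these genes, limma called 0 of 12 at an adjusted p under 0.05. At an unadjusted p under 0.05, 1 was lower, the targeted gene Eif2ak3, beside 3.52% of all tested genes that were lower. Atf4 measured 147 and 124 FPKM in WT and 115 and 99.5 FPKM in KO, with KO values below WT values and replicate 1 the higher in each genotype. Nfe2l2, which encodes NRF2, measured 56.8 and 55.4 FPKM in WT and 45.7 and 42.6 FPKM in KO. Atf3, a stress-induced factor and the most abundant of the list, measured 186 and 185 FPKM in WT and 198 and 186 FPKM in KO. Ddit3, which encodes the stress factor CHOP, measured 33.0 and 32.0 FPKM in WT and 33.6 and 31.2 FPKM in KO. The limma adjusted p-values of Atf4, Nfe2l2, Atf3 and Ddit3 were 0.776, 0.776, 0.927 and 0.990. After median-ratio scaling both KO values lay below both WT values for 3 of the 12, beside 15.3% of all tested genes. Both lay above both WT values for 4 of the 12, beside 14.0% of all tested genes. The 3 with lower KO values were Atf4, Nfe2l2 and Eif2ak3, the last being the gene targeted by design.

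Further amino acid transporters, grouped here by name as those of the cell surface, formed a list of 36 genes. Of these, 23 were listed and 8 reached the minimum. Where their proteins lie in the cell was not measured, and the grouping does not show it. Limma called 0 of the 8, and 0 had an unadjusted p under 0.05 in either direction. Of all tested genes, 3.52% were lower at that p. Slc6a6, the taurine transporter, was the most abundant, at 153 and 153 FPKM in WT and 155 and 136 FPKM in KO, above every one of the 10 members in each library. Slc38a10 measured 38.2 and 35.6 FPKM in WT and 28.8 and 30.2 FPKM in KO (limma adjusted p = 0.776). Slc36a4, of the proton-assisted amino acid transporter family, measured 13.1 and 13.3 FPKM in WT and 11.3 and 8.86 FPKM in KO, with the smallest p of the list (unadjusted 0.0593, limma adjusted p = 0.776). Their median log2 change was -0.01 relative to the median gene, beside -0.03 for the tested members.

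Genes grouped by name as transporters of the lysosome, some of which return amino acids from degraded protein to the cytosol, gave a similar count. Of 9 listed genes 8 were tested, limma called 0, and 0 had an unadjusted p under 0.05. Beside this, 3.52% of all tested genes were lower at that p. Slc15a3, a peptide and histidine transporter, was lowest in WT replicate 1, as Slc7a2 was, at 55.6 FPKM against 99.3 FPKM in WT replicate 2 and 95.4 and 70.2 FPKM in KO. Ctns, which exports cystine from lysosomes, measured 12.7 and 12.3 FPKM in WT and 11.5 and 10.7 FPKM in KO (limma adjusted p = 0.776).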

How the data were processed

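RNA depleted of ribosomal RNA was made into stranded, randomly primed libraries, per the labels' protocols. The deposited values are FPKM, computed by the authors per library and given to 2 decimals; mm10 and, with no version or role, RSEM, Bowtie2, StringTie and HISAT stand in the submitters' processing notes. The tables hold no counts, so depth is unknown and no counting interval is given. A gene missing from a library was taken as 0. Of 15114 Entrez-numbered genes, 15094 matched a RefSeq symbol (GRCm38.p6); 76534 features with no Entrez number entered only 1 alternative. The 9501 genes averaging 1 FPKM or more were compared on log2(FPKM + 1) with limma 3.58.1 in R 4.3.3, with a mean-variance trend, two-sided, without a block, with Benjamini and Hochberg adjustment over all tested genes. Fold changes on this scale understate those of low genes. Median-ratio scaling used genes listed in all 4 libraries. The procedure was run on simulated data with known changes and the same spread for every gene. That run does not show its power on these libraries. The named genes are the 10 members and, of each other list, up to 4 with the highest mean and up to 3 with the smallest p. Members and lists were chosen with earlier results of these data known. Promoters and coordinates are RefSeq's, and shared exon bases come from GENCODE's mouse annotation.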

Additional observations from a re-analysis of the deposited data

How the results depend on the processing

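The members past the threshold numbered 0 under all alternatives run, and their lowest adjusted p was 0.389, that of Slc7a5 without WT replicate 2. Over all tested genes the calls numbered 2, with 0 when genes had to be listed in all 4 libraries, 14 with the replicate block, and 2 to 43 when 1 library was left out. Of the members and listed genes together, 0 to 1 passed when 1 library was left out; the 1 was Fcgr1, without WT replicate 2, the setting that also gave the 43 calls. With a library left out its genotype has 1 library, which is assumed to vary like the other genotype. As deposited, the sign of Slc3a2 turned to 0.0457 under median-ratio scaling, to 0.0496 under upper-quartile scaling and to 0.0457 with the replicate block and median-ratio scaling, and ranged from -0.26 to 0.0614 when 1 library was left out. Under leave-one-out, Slc7a2 ranged from -0.32 to 0.71, Slc7a8 from -0.29 to 0.38 and Slc1a5 from -0.17 to 0.27. The cause was not tested. With the replicate block the unadjusted limma p of Slc7a1 was 0.0169 and that of Slc7a5 0.0166 (adjusted 0.547 and 0.546). With the block and median-ratio scaling the unadjusted limma p was 0.0354 for Slc7a1 and 0.0810 for Slc7a5 (adjusted 0.998 for each). Across tested genes the difference between replicates 1 and 2 in WT correlated with that in KO at r = 0.07, so the numbers were not taken as pairs. Pseudocount 0.1 without a filter, and the block with scaling, were chosen after seeing the data. Depth is unknown, so the precision of Slc7a11 and Slc6a9, under 1 FPKM on average, cannot be stated beyond the spread between libraries.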

Other observations

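The genes of this paragraph were chosen after their values were seen. Slc7a6, which encodes a further light chain that pairs with the heavy chain, measured 2.96 and 3.67 FPKM in WT and 2.71 and 3.22 FPKM in KO. Nos2, the nitric oxide synthase that competes with arginase for arginine, stayed at 0.09 FPKM or less in the 4 libraries.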
